A study of Mus musculus with 9 samples.

Results

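The 40 genes described here act in mitosis, and they were chosen by symbol from the 49315 genes of the count table: cyclins A and B with Cdk1, the mitotic kinases, the spindle checkpoint, the kinetochore, the spindle motors, the central spindle, and the proliferation markers Top2a and Mki67. All 40 symbols were found, each on 1 row, and all 40 passed the filter on low counts, as did 15963 genes in all. RNA came from RAW 264.7, an established mouse macrophage line. RANKL is the cytokine under which such cells fuse into osteoclast-like cells. The growth notes of all samples give 20 ng/ml RANKL, added after 24 hours of culture. The control group carried the label of no treatment (3 libraries), so whether it received RANKL rests on the growth notes alone and is in doubt, the pamidronate group received 140 µM pamidronate at 48 hours (3 libraries), and the pamidronate + GGOH group received 140 µM pamidronate with 5.25 µM GGOH, geranylgeraniol (3 libraries). Cells were collected after a further 24 hours, so each group is a single culture condition of 1 line at 1 time. Only the control titles name biological replicates, so the p-values below measure the spread between these libraries, which may be partly technical.

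Mitosis is driven by Cdk1 bound to cyclin B. The checkpoint kinases and Mad2 hold the anaphase-promoting complex in check until every kinetochore, the protein plate on the centromere, is attached to spindle microtubules. Most of these genes are transcribed in the late part of the cell cycle, when the B-Myb and FoxM1 factors act with the MuvB complex at promoter elements named CHR, and NF-Y acts at CCAAT boxes. Their RNA is therefore often read as a measure of how many cells of a culture are close to division. RAW 264.7 cells divide in culture, whereas fused osteoclasts do not. Pamidronate is a nitrogen-containing bisphosphonate that blocks farnesyl diphosphate synthase and so the supply of the lipids used to prenylate proteins, and GGOH can be converted into the geranylgeranyl lipid. A few mitotic proteins, among them the kinetochore proteins Cenpe, Cenpf and Spdl1, are known to be farnesylated.

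Upstream sequences are shown for 6 members because their RNA went different ways in the data. Ccnb2, Top2a and Kif11 were among the members that fell most with pamidronate, Cdk1 was not called, and Cenpa and Mad2l1 were higher. Each line gives the 150 bases before the RefSeq start in GRCm38.p6, 5′ to 3′ on the strand of the gene. Capitals mark CHR elements (TTTGAA, its reverse complement TTCAAA, or TTCGAA, which is its own reverse complement) and CCAAT boxes (CCAAT or ATTGG).
Ccnb2 (chr9:70421555-70421704, minus strand): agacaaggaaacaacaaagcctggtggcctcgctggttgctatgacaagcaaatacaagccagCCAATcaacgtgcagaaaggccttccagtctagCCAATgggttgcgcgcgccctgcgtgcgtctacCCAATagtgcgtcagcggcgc
Top2a (chr11:99024190-99024339, minus strand): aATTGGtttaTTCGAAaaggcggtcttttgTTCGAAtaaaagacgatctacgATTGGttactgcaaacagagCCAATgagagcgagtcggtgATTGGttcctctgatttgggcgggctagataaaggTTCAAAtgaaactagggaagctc
Kif11 (chr19:37376232-37376381, plus strand): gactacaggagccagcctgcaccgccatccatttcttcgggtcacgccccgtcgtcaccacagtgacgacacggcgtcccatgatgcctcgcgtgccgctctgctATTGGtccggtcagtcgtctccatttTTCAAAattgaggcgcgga
Cdk1 (chr10:69352913-69353062, minus strand): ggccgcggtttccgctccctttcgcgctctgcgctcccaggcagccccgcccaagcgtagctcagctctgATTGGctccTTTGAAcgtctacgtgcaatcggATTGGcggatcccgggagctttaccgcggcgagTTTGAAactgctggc
Cenpa (chr5:30666736-30666885, plus strand): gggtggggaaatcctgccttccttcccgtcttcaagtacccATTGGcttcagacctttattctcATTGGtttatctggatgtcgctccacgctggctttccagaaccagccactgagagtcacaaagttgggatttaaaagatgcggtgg
Mad2l1 (chr6:66535071-66535220, plus strand): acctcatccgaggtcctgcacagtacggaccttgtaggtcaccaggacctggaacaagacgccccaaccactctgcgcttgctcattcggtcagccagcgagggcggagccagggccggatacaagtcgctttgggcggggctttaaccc

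Across the 300-base windows from 250 bases before to 50 bases after the start, 33 of the 40 members had a RefSeq sequence. A CHR element on either strand was present in 26 of the 33 (78.8%), compared with 19.4% of 27025 genes with a window of the same length. A CCAAT box was present in 24 members (72.7%) and in 37.9% of all genes, and both elements together in 22 members (66.7%) and in 7.7% of all genes. CCAAT and ATTGG can share bases where they abut, and the CHR and CCAAT searches were made separately. Among members called lower with pamidronate, 9 of the 11 with a window held a CHR element, and among those not called, 16 of 20 did. Ccnb2 held 3 CCAAT boxes in the printed stretch and had its CHR elements outside it, and Cenpa had its CHR element after the start. Neither element was found in the window of Mad2l1, which says only that these letters are not there.

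Macrophage markers were abundant in every group, and several osteoclast markers were at or near 0. The summed level of 9 macrophage markers lay between 17458 and 22071 CPM (counts scaled to a common library total with TMM factors) in the controls, between 5205 and 7091 with pamidronate, and between 7218 and 10442 with pamidronate + GGOH. Calcr, the calcitonin receptor of mature osteoclasts, was at 0 in 6 of the 9 libraries, and the 8 osteoclast markers together reached 87.9 to 108 CPM in the controls, 260 to 400 with pamidronate and 230 to 235 with pamidronate + GGOH. These markers did not move together: Atp6v0d2 made up 282, 329 and 204 CPM of the pamidronate sums, while Mmp9 was at 17.6, 32.4 and 31.3 CPM in the controls, 17.2, 21.4 and 14.5 with pamidronate and 61.8, 68.3 and 130 with pamidronate + GGOH. Summed markers of T cells, B cells, fibroblasts, epithelium and red cells stayed at or below 2.38 CPM in every library. Libraries held 14356069 to 18957968 counts, and member counts in a library ran from 13 for Spc24 to 8772 for Mki67.

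The 3 controls stood apart from each other in these genes before any treatment was compared. The summed counts of the 40 members made up 0.072%, 0.181% and 0.245% of all counts in control replicates 1, 2 and 3. With pamidronate the shares were 0.0877%, 0.101% and 0.0876%, and with pamidronate + GGOH they were 0.0574%, 0.0835% and 0.126%. Control 1 lay below all 3 pamidronate libraries in this sum, while controls 2 and 3 lay above every treated library. In bulk RNA, fewer dividing cells and less RNA per dividing cell cannot be told apart.

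**Figure D1:**
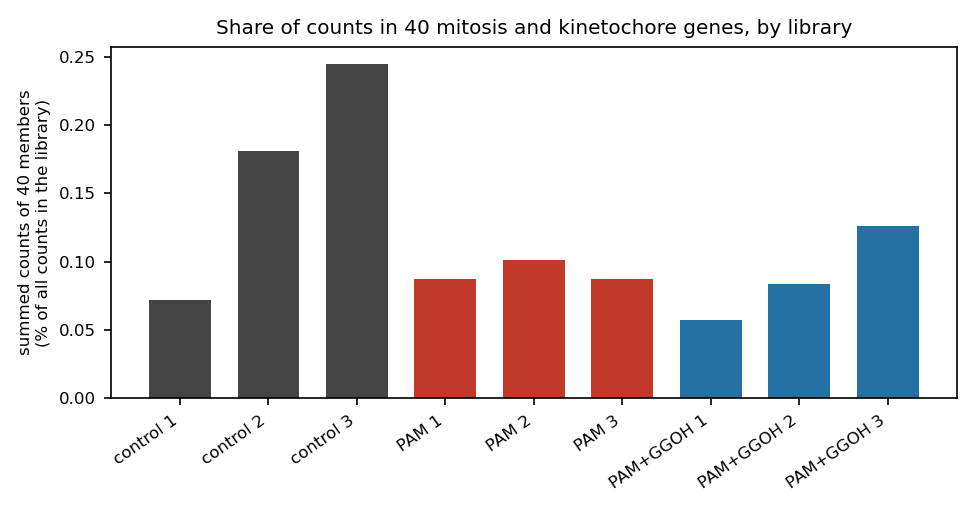
Summed counts of the 40 members as a percentage of all counts in the library (y axis) for each of the 9 libraries (x axis; PAM is pamidronate), 1 bar per library. Control 1 (0.072%) was lower than the pamidronate libraries (0.0876% to 0.101%), and controls 2 and 3 (0.181% and 0.245%) were higher than all treated libraries.

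The order of the control libraries was the same in every member. Control 1 was lowest and control 3 highest in 40 of 40 members, an order found in 25.2% of all genes tested. The ratio of control 3 to control 1 had a median of 4.20 over the members and ran from 1.33 for Bub3 to 6.62 for Ccnb2, against a median of 1.00 over all genes. Between control 3 and control 2 the median ratio was 1.36. The pamidronate + GGOH libraries were ordered from replicate 1 up to replicate 3 in 35 of 40 members (23.5% of all genes), with Bub3, Mad2l1, Cenpa, Spc24 and Pttg1 as the exceptions, and the median ratio of replicate 3 to replicate 1 was 2.45. Pamidronate libraries were close together, with a median ratio of highest to lowest of 1.28 over members and 1.22 over all genes.

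The within-group SD of log2 CPM put a number on that difference between groups. Its median over members was 1.07 in the controls, 0.19 with pamidronate and 0.651 with pamidronate + GGOH, compared with 0.178, 0.149 and 0.187 over all genes. In the controls, 30 of 40 members varied more than the 95th percentile of all genes (0.774), in the pamidronate + GGOH group 18 did, and in the pamidronate group 0 did. Bub3, the checkpoint protein that also carries Bub1 and BubR1 to the kinetochore, varied least among the controls (SD 0.212), and Ccnb2, cyclin B2, varied most (SD 1.44).

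Other measures that were taken in the same libraries moved with control 1 to different degrees. The summed level of 40 DNA replication genes was 859, 1390 and 1761 CPM in controls 1, 2 and 3, and that of macrophage markers was 22071, 18926 and 17458 CPM. Lyz2 alone made up 16277, 13195 and 11652 CPM of the macrophage sum. The other macrophage markers changed by fewer CPM and in both directions, such as Tyrobp at 565, 515 and 439 CPM and Mpeg1 at 1552, 1582 and 1886 CPM. The share of mitochondrial counts was nearly equal at 10.8%, 10.4% and 10.4%, and total counts were 18957968, 18911205 and 16943250. The part of these measures in the results below was not tested, and the labels give 1 batch for all libraries.

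**Figure D2:**
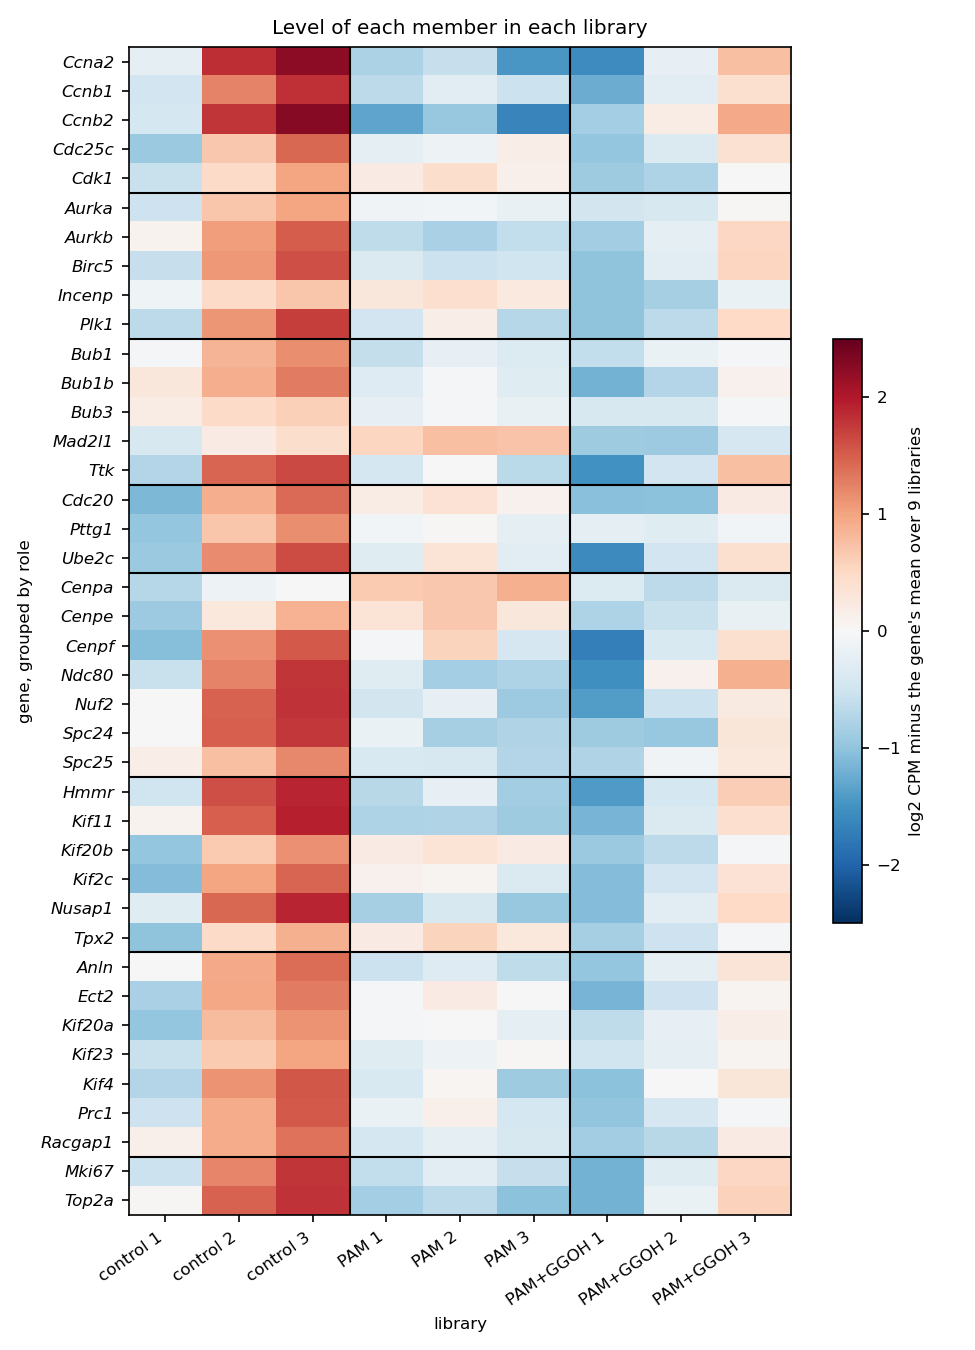
Level of each of the 40 members (rows, grouped by role) in each of the 9 libraries (columns; PAM is pamidronate), as log2 CPM minus the gene's mean over the 9 libraries. Controls 2 and 3 are red in most rows, control 1 is the lowest control in 40 of 40 rows, and Cenpa and Mad2l1 are highest in the 3 pamidronate columns.

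Per base of transcript, the proliferation antigen Mki67 had the highest mean among the members in the controls, at 78.1 ± 52.4 TPM (counts divided by gene length and scaled to a common total; SD, n = 3), followed by Incenp, the scaffold of the chromosomal passenger complex, at 58.1 ± 18.4 TPM. Spc24, a subunit of the Ndc80 complex that binds microtubules, had the lowest mean at 3.4 ± 1.88 TPM. The order differed between controls: in control 1, Mki67 was at 23.0 TPM, below Incenp (38.0), Bub1b (30.2) and Bub3 (24.7), and Spc24 at 1.30 was above Kif2c (1.22) and Kif4 (1.28). With pamidronate, Incenp led at 59.8 ± 3.51 TPM and Tpx2, which targets Aurora A to the spindle, followed at 49.3 ± 6.16 TPM, ahead of Mki67 at 27.7 ± 3.04 TPM. With GGOH added, the means were 40 ± 22.7 TPM for Mki67, 36.0 ± 11.7 TPM for Incenp and 33.2 ± 9.57 TPM for Tpx2. By library, Mki67 was at 19.1, 36.7 and 64.2 TPM, Incenp at 27, 31.7 and 49.3 TPM and Tpx2 at 24.5, 31.5 and 43.4 TPM. Differences between these genes were not tested. Spc24 had the lowest mean in both treated groups, at 1.04 ± 0.308 and 1.33 ± 0.721 TPM.

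The first comparison asked how these genes differed between the pamidronate and control groups, the latter read as RANKL without pamidronate. Of the 40 members, 14 fell, 2 rose and 24 were not called. The background was broad, since 69.2% of all genes tested were called in either direction, 32.9% lower and 36.2% higher. The median log2 fold change of the members was -1.11, against 0.08 over all genes, and 36 of 40 estimates were below 0. The largest falls were in the cyclins Ccnb2 and Ccna2, the motor Kif11 and the topoisomerase Top2a, and the 2 that rose were the centromere histone Cenpa and the checkpoint protein Mad2l1. A call required an adjusted p under 0.05 (quasi-likelihood F-test of edgeR, adjusted by Benjamini and Hochberg's method over 15963 genes), and at an unadjusted p below that level 18 members were lower and 2 higher. Counts at the unadjusted level were not worked out over all genes in any comparison.

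Among the cyclins, Ccnb2 on chr9:70407692-70421547 had the largest fall. Its level was 5.37, 25.3 and 35.6 CPM in controls 1, 2 and 3, 2.93, 3.8 and 2.35 CPM with pamidronate, and 4.09, 8.35 and 14.1 CPM with pamidronate + GGOH. Every pamidronate library lay below every control, and the pamidronate + GGOH libraries overlapped the controls. Its log2 fold change with pamidronate was -2.86 ± 0.79 (SE; edgeR adjusted p = 0.0155, n = 3 against 3). Ccna2, cyclin A2, which acts from S phase to early mitosis, measured 15.8, 67.5 and 87.9 CPM in the controls and 10.8, 12.5 and 6.81 CPM with pamidronate. It fell by 2.5 ± 0.82 on the log2 scale (edgeR adjusted p = 0.031), with no overlap between the groups. Its exons overlap Exosc9 on the opposite strand, and without a stated strand setting reads of the pair cannot be told apart.

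Ccnb1, cyclin B1, was not called. It measured 10.3, 33.9 and 51.3 CPM in the controls and 9.10, 11.9 and 9.85 CPM with pamidronate, so that control 1 lay inside the range of the treated libraries. The estimate was -1.63 ± 0.63 (edgeR adjusted p = 0.0557). Cdk1, the kinase that the cyclins activate, was also not called, at 9.70, 19.9 and 28.6 CPM in the controls against 16.6, 19.5 and 15.7 CPM with pamidronate, an estimate of -0.17 ± 0.39 (edgeR adjusted p = 0.721). Cdc25c, the phosphatase that activates Cdk1, lay between the kinase and its cyclins at -0.74 ± 0.53. The differences between these estimates were not tested.

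Of the 5 mitotic kinases and passenger complex members, 1 fell and 4 were not called, with a median of -1.31. Aurkb, Aurora B, the kinase of the chromosomal passenger complex, measured 13.1, 25.3 and 34.8 CPM in the controls and 7.88, 7.02 and 7.99 CPM with pamidronate. It fell by 1.67 ± 0.44 on the log2 scale (edgeR adjusted p = 0.0109), with every treated library below every control. Its partners in that complex were not called: survivin (Birc5) had an estimate of -1.42 ± 0.58 and Incenp one of -0.08 ± 0.25. Plk1, a kinase needed for mitotic entry and spindle building, measured 5.14, 17.4 and 26.9 CPM in the controls and 5.81, 9.11 and 4.96 CPM with pamidronate (estimate -1.31 ± 0.66, edgeR adjusted p = 0.119), and control 1 overlapped the treated libraries. Aurka, Aurora A, which matures centrosomes, was also not called (-0.63 ± 0.33). Without control 1, Plk1, Aurka and Birc5 were called lower.

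In the spindle checkpoint, 3 of 5 members fell, 1 rose and 1 was not called. Bub1b, which encodes BubR1, measured 60.7, 93.3 and 123 CPM in the controls against 39.8, 48.2 and 40.3 CPM with pamidronate, a log2 fold change of -1.11 ± 0.38 (edgeR adjusted p = 0.0336). Bub3 measured 81.4, 100 and 108 CPM against 61.7, 68.8 and 62.7 CPM, a smaller but more precise log2 fold change of -0.58 ± 0.12 (edgeR adjusted p = 0.000579). In both genes the groups did not overlap. The kinase Bub1, which marks centromeric chromatin, fell by 1.10 ± 0.30 on the log2 scale (edgeR adjusted p = 0.0119).

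Mad2l1, the Mad2 protein that binds and blocks Cdc20, went the other way. It measured 34.9, 53.4 and 62.6 CPM in the controls and 66.9, 77.4 and 75.5 CPM with pamidronate, so that all treated libraries lay above all controls (38.7% of all genes did). Its log2 fold change was 0.54 ± 0.20 (edgeR adjusted p = 0.0366). The checkpoint kinase Ttk (Mps1) was not called, with an estimate of -1.45 ± 0.74.

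The 3 members that act with the anaphase-promoting complex were not called. Estimates were -0.51 ± 0.61 for its activator Cdc20, -1.02 ± 0.72 for its ubiquitin-conjugating enzyme Ube2c and -0.62 ± 0.43 for securin (Pttg1), which it destroys to release the sister chromatids.

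Kinetochore genes split between falls and 1 rise. Cenpa, the histone H3 variant that marks the centromere, on chr5:30666777-30674830, measured 18.1, 27.0 and 29.3 CPM in the controls, 46.4, 47.1 and 54.8 CPM with pamidronate, and 23.3, 18.9 and 23.0 CPM with pamidronate + GGOH. The pamidronate libraries lay above all others, and the other groups overlapped. Cenpa rose by 1.00 ± 0.15 on the log2 scale (edgeR adjusted p = 6.91e-05). Subunits of the Ndc80 complex, which ties the kinetochore to microtubules, fell: Nuf2 by 1.77 ± 0.56, Spc24 by 1.81 ± 0.46 and Spc25 by 1.25 ± 0.29 (edgeR adjusted p = 0.0246, 0.00355 and 0.00245). Ndc80 itself had an estimate of -1.72 ± 0.72 and was not called (edgeR adjusted p = 0.0678).

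Nuf2 measured 8.41, 23.7 and 29.5 CPM in the controls against 6.17, 7.34 and 4.52 CPM with pamidronate. Spc24 measured 1.58, 4.42 and 5.38 CPM against 1.41, 0.886 and 0.929 CPM, and it is the member with the fewest counts. Both genes had their highest pamidronate library just below control 1. The outer kinetochore motor Cenpe and the large coiled-coil protein Cenpf were not called. Cenpe measured 17.3, 39.0 and 59.2 CPM in the controls against 41.6, 52.0 and 39.6 CPM (estimate 0.21 ± 0.41), and Cenpf measured 9.52, 43.8 and 57.9 CPM against 19.2, 29.5 and 14.9 CPM (estimate -0.81 ± 0.76). In both, the treated libraries lay above control 1 and below control 3.

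Of the spindle genes, the motor Kif11 (Eg5), which pushes the poles apart, and Nusap1, which bundles microtubules near chromosomes, fell. Kif11 measured 20.8, 55.1 and 75.6 CPM in the controls and 11.4, 11.6 and 10.5 CPM with pamidronate, a log2 fold change of -2.18 ± 0.57 (edgeR adjusted p = 0.012). Nusap1 measured 11.4, 38.1 and 52.4 CPM against 7.88, 10.6 and 7.25 CPM, a log2 fold change of -1.98 ± 0.63 (edgeR adjusted p = 0.0271). In both genes all 3 treated libraries lay below control 1. Tpx2 (0.03 ± 0.46), the motors Kif20b (-0.26 ± 0.49) and Kif2c (-0.83 ± 0.61), and the spindle-assembly protein Hmmr (-1.89 ± 0.73, edgeR adjusted p = 0.053) were not called.

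Of the 7 genes of the central spindle and cytokinesis, 2 fell. Racgap1, a subunit of centralspindlin, which bundles microtubules at the division plane, measured 17.5, 30.2 and 40.9 CPM in the controls and 11.8, 13.7 and 12.0 CPM with pamidronate. Its log2 fold change was -1.24 ± 0.37 (edgeR adjusted p = 0.0167), with no overlap. Anillin (Anln), the scaffold of the contractile ring, fell by 1.39 ± 0.43 (edgeR adjusted p = 0.0251). Not called were Ect2 (-0.67 ± 0.54), a cytokinesis factor, Kif23 (-0.62 ± 0.36), the motor partner of Racgap1, and Kif20a, Kif4 and Prc1, with estimates of -0.64, -1.29 and -1.01.

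Top2a and Mki67, often used to count proliferating cells, differed in their call. Top2a, the topoisomerase that untangles sister chromatids, measured 53.6, 146 and 184 CPM in the controls and 29.0, 33.5 and 25.8 CPM with pamidronate, and fell by 2.12 ± 0.59 on the log2 scale (edgeR adjusted p = 0.0171). Mki67 measured 109, 366 and 542 CPM against 103, 129 and 105 CPM, an estimate of -1.59 ± 0.66 that was not called (edgeR adjusted p = 0.07). Top2a had no overlap between groups, whereas control 1 fell within the treated range for Mki67.

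**Figure D3:**
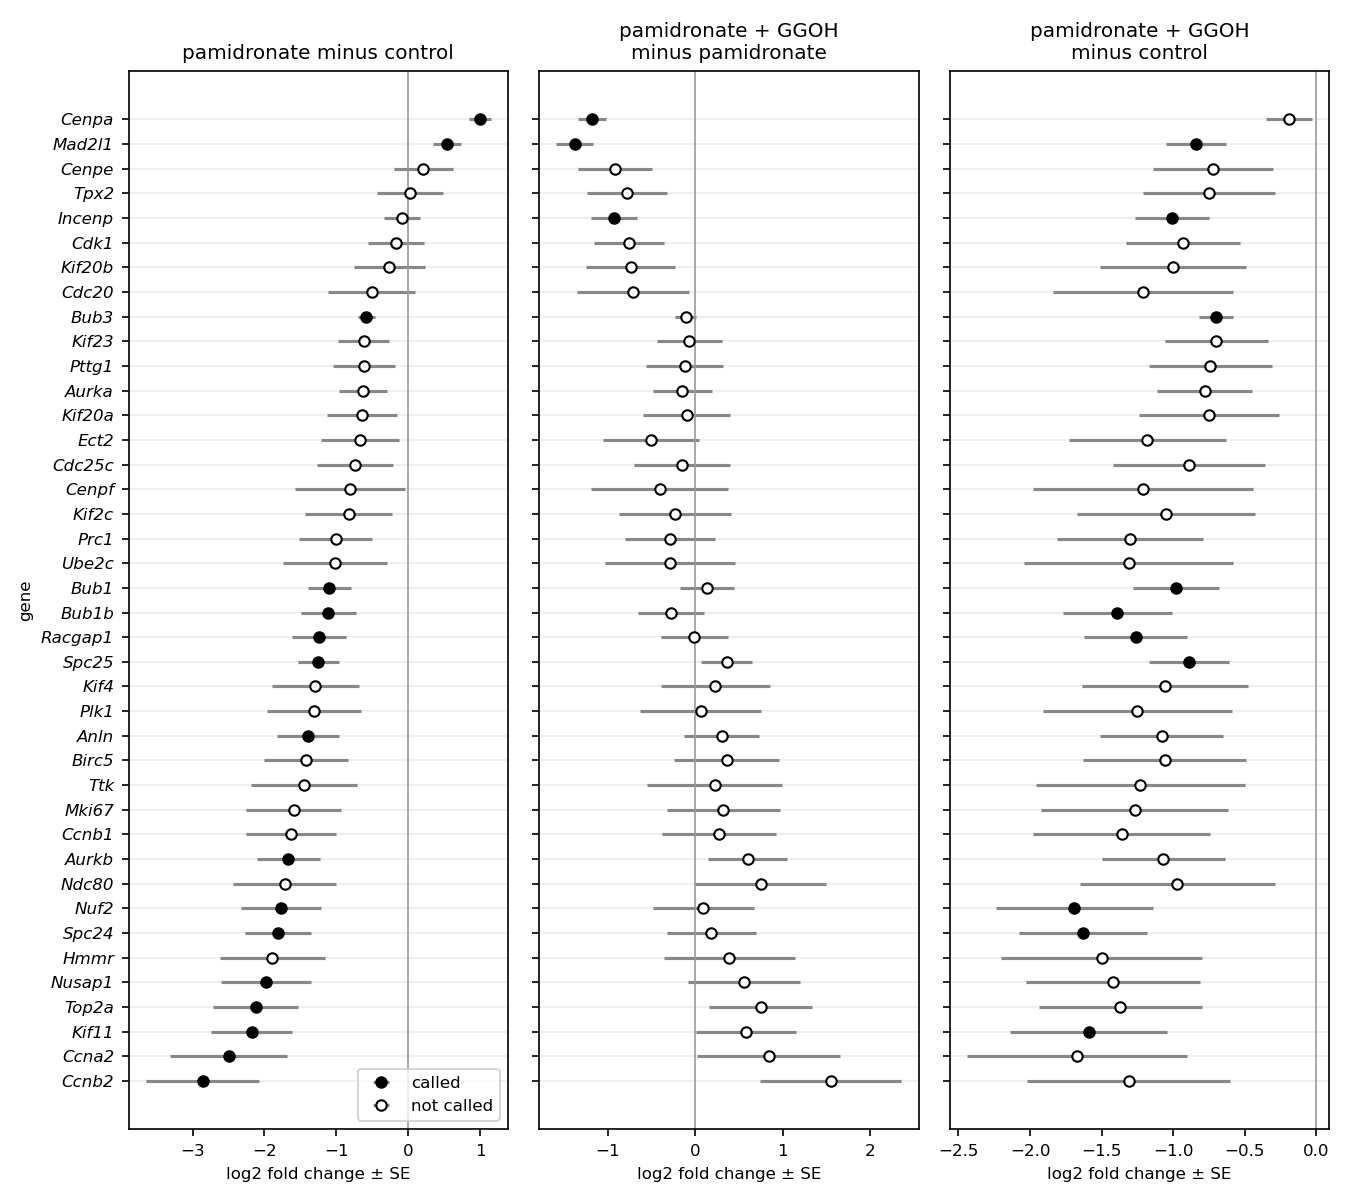
Log2 fold change with its SE (x axis) of the 40 members (y axis, ordered by the first panel) in the 3 comparisons; filled circles passed an adjusted p of 0.05 and open circles did not. Ccnb2 is at -2.86 and Cenpa at 1.00 in the first panel, Mad2l1, Cenpa and Incenp are the filled points of the middle panel, and all 40 estimates are below 0 in the right panel.

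Which members were called lower went with where the pamidronate libraries lay against control 1. In 36 of 40 members, all 3 pamidronate libraries lay below controls 2 and 3, as in 37.9% of all genes, and the exceptions were Mad2l1, Cenpa, Cenpe and Tpx2. Against control 1, the pamidronate libraries were all lower in 14 members, the same 14 that were called (34.7% of all genes lay below all controls), and all higher in 20. Without control 1, 33 members were called lower and 1 higher (31.9% and 35.3% of all genes). This library is the lowest control in each member, so leaving it out raises the control mean of each. With library weights in limma-voom, 28 were called lower (35.5% of all genes). Without control 2 or control 3, 9 members were called lower, and without pamidronate 1 or pamidronate 3, 6 were. In either direction, 10207 of 16589 and 10705 of 16578 genes were called without control 2 and control 3. Without pamidronate 1 and pamidronate 3, 10570 of 16528 and 10262 of 16462 genes were. Aurkb, Bub1, Bub3, Cenpa, Spc24, Spc25 and Kif11 kept their call in all 18 alternative fits. The other calls were lost in 2 (Ccnb2, Top2a), 3 (Racgap1), 5 (Nuf2, Anln), 6 (Ccna2, Nusap1) or 7 (Bub1b, Mad2l1) of the 18. Exons of Kif20a, Kif4, Prc1, Nusap1, Cdc20, Ube2c and Plk1 also overlap a gene on the opposite strand, and Ccnb1 has near-identical pseudogenes of which Ccnb1-ps and Gm12856 held 4 and 2 counts over all libraries.

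**Figure D4:**
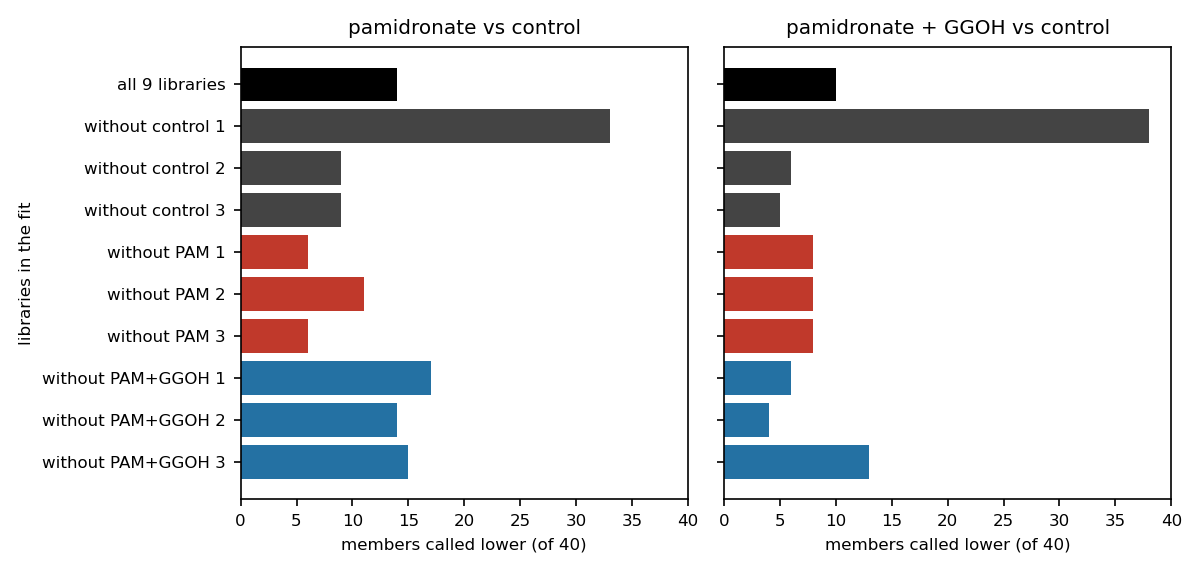
Number of the 40 members called lower than control (x axis) with all 9 libraries and with each library left out in turn (y axis; PAM is pamidronate), for both treated groups. The count rises from 14 to 33 and from 10 to 38 without control 1, and no other left-out library takes it above 17 and 13.

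A measure that does not depend on library scaling is the share of each member in the summed counts of the 40, which describes the make-up of the mitotic RNA and in which some shares must rise where others fall. Relative to the controls, 13 members took a larger share in all pamidronate libraries and 15 a smaller one, with no overlap. Such shares were not worked out for other sets of genes. In CPM, a different measure, 38.7% of all genes lay higher and 34.7% lower than the controls without overlap. The larger shares were those of Cdk1, Cdc20, Aurka, Mad2l1, Cenpa, Cenpe, Kif20a, Kif20b, Kif23, Tpx2, Pttg1, Incenp and Ect2. The smaller ones were those of cyclins A2, B1 and B2, Aurkb, Bub1b, Nuf2, Spc24, Spc25, Kif11, Top2a, Mki67, Nusap1, Anln, Racgap1 and Hmmr. This measure was added after the values were seen.

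The shares of several members were close among the 3 controls although their levels were not. Top2a took 6.73%, 7.61% and 7.19% of the member counts in the controls and 3.25%, 3.17% and 2.89% with pamidronate. Tpx2 took 4.59%, 5.32% and 5.28% in the controls and 9.40%, 10.3% and 9.77% with pamidronate. Kif11 went from 2.61%, 2.87% and 2.95% to 1.28%, 1.10% and 1.17%, and Cdk1 from 1.22%, 1.04% and 1.11% to 1.86%, 1.85% and 1.76%. For these 4 genes the controls were closer to each other than to any pamidronate library. Other shares differed between control 1 and the other controls. Mki67 took 13.7%, 19.1% and 21.2% in the controls, Bub3 10.2%, 5.23% and 4.21%, and Incenp 7.22%, 4.5% and 3.95%. The make-up was thus not free of the spread between controls. Cenpa, at 2.27%, 1.41% and 1.14% in the controls and 5.21%, 4.46% and 6.15% with pamidronate, had the largest ratio of mean shares (3.28), and Ccnb2 had the smallest (0.282).

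With GGOH added, the same measure separated 10 members upward and 9 downward from pamidronate alone. These comparisons share the pamidronate libraries, so they are given side by side only. In CPM, 29.9% of all genes lay higher and 29.7% lower than with pamidronate alone, without overlap. Tpx2 took 7.78%, 6.79% and 6.08%, Top2a 4.37%, 6.31% and 6.68%, Kif11 1.64%, 2.02% and 2.24%, and Cdk1 1.46%, 1.13% and 1.22% in the pamidronate + GGOH libraries. Ccnb2 took 0.771%, 1.12% and 1.21%, against 0.329%, 0.36% and 0.264% with pamidronate alone and 0.674%, 1.32% and 1.39% in the controls. Its share with GGOH overlapped that of the controls. Relative to the controls, 31 of 40 shares overlapped in the pamidronate + GGOH group, 4 were higher (Cenpe, Kif20a, Kif23 and Tpx2) and 5 lower (Bub1b, Nuf2, Spc24, Kif11 and Top2a). In CPM, 29.9% of all genes lay higher and 28.4% lower than the controls without overlap.

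**Figure D5:**
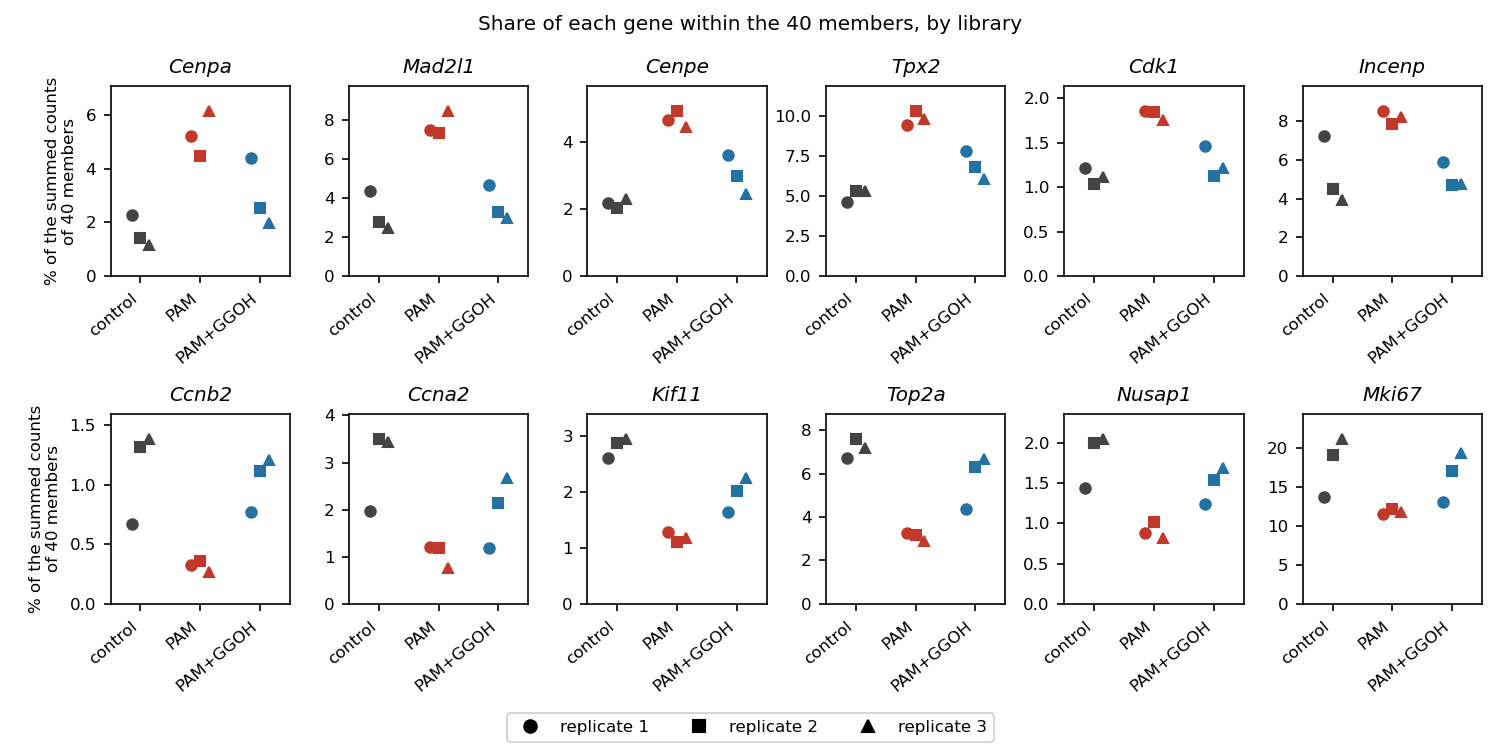
Share of each of 12 members in the summed counts of the 40 members (y axis, percent, from 0) by group (x axis; PAM is pamidronate), with 1 symbol per library and a shape for each replicate. The upper row holds members with a larger share in all pamidronate libraries than in any control, such as Tpx2 at 9.40% to 10.3%, and the lower row members with a smaller one, such as Top2a at 2.89% to 3.25%.

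The second comparison asked whether GGOH, given with pamidronate, moved these genes relative to pamidronate alone. Of the 40 members, 3 fell, 0 rose and 37 were not called, where 48.8% of all genes were called in either direction, 23.6% lower and 25.2% higher. The fit takes the residual spread of a gene from all 9 libraries, so the wide spread of the controls enters these p-values. With the 2 groups fitted alone, 7 members were called lower and 1 higher, where 7877 of 15639 genes were called in either direction. The median log2 fold change was -0.04, against 0.00 over all genes. At an unadjusted p under 0.05 the counts were also 3 and 0, and DESeq2 and limma-voom called 0 higher. The genes that fell were Mad2l1, Cenpa and Incenp.

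Mad2l1 measured 24.9, 24.5 and 34.7 CPM with pamidronate + GGOH and 66.9, 77.4 and 75.5 CPM with pamidronate alone. It fell by 1.38 ± 0.21 on the log2 scale (edgeR adjusted p = 0.000442), and the highest GGOH library stayed below control 1. Cenpa fell by 1.18 ± 0.16 (edgeR adjusted p = 4.25e-05) into the range of the controls. Incenp measured 57.5, 86.4 and 101 CPM in the controls, 76.1, 83.1 and 73.3 CPM with pamidronate and 31.2, 35.1 and 55.3 CPM with GGOH added, and fell by 0.93 ± 0.26 (edgeR adjusted p = 0.0175). For Incenp the pamidronate + GGOH libraries lay below all 6 others. The Mad2l1 and Cenpa calls held in all 18 alternative fits, and that of Incenp was lost in 3.

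There were 7 members that lay lower in all pamidronate + GGOH libraries than in any with pamidronate alone (29.7% of all genes did), and 1 lay higher (29.9%). Besides the 3 called genes, the lower ones were Cdk1, Cenpe, Kif20b and Tpx2, with estimates of -0.76 ± 0.40, -0.92 ± 0.42, -0.74 ± 0.51 and -0.78 ± 0.46. The higher one was Ccnb2, with an estimate of 1.55 ± 0.81 (edgeR adjusted p = 0.161). With the 2 groups fitted alone, and without control 1, Cdk1, Cenpe, Kif20b and Tpx2 were called lower and Ccnb2 higher. Top2a (0.75 ± 0.59), Kif11 (0.58 ± 0.57), Aurkb (0.60 ± 0.45) and Ccna2 (0.84 ± 0.82), all lower with pamidronate, were not called in this comparison. Their pamidronate + GGOH libraries spread widely, at 23.2, 47.2 and 78.0 CPM for Top2a, 8.68, 15.1 and 26.2 CPM for Kif11, 6.70, 10.4 and 17.6 CPM for Aurkb and 6.30, 16.1 and 31.3 CPM for Ccna2. In each, replicate 1 was lower than every pamidronate library and replicate 3 was higher than every one.

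Other named members showed the same spread. Mki67 measured 69.0, 127 and 225 CPM with pamidronate + GGOH, Ccnb1 6.13, 11.8 and 19.1 CPM, and Plk1 4.03, 5.11 and 11.5 CPM. Each had a replicate below and a replicate above all pamidronate libraries. Cdk1, at 7.72, 8.41 and 14.2 CPM, and Cenpe, at 19.2, 22.2 and 28.7 CPM, lay below all pamidronate libraries.

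The third comparison set pamidronate + GGOH against the controls. Here 10 members fell, 0 rose and 30 were not called, where 26.0% of all genes were called lower and 26.3% higher. DESeq2 and limma-voom also called 0 higher, as did an unadjusted p under 0.05. All 40 estimates were below 0, with a median of -1.08 against 0.02 over all genes. The genes that fell were Bub1, Bub1b, Bub3 and Mad2l1 of the checkpoint, Nuf2, Spc24 and Spc25 of the Ndc80 complex, and Kif11, Incenp and Racgap1.

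Bub3 measured 54.4, 53.9 and 70.3 CPM with pamidronate + GGOH, a log2 fold change of -0.70 ± 0.12 from the controls (edgeR adjusted p = 0.000309). Bub1b measured 21.9, 30.0 and 53.6 CPM and fell by 1.39 ± 0.38 (edgeR adjusted p = 0.0197). Both lay below all 3 controls, as did Mad2l1 (-0.84 ± 0.21, edgeR adjusted p = 0.0077) and Incenp (-1.01 ± 0.26, edgeR adjusted p = 0.0117). These 4 are the members with no overlap, against 28.4% of all genes.

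The remaining calls had libraries that overlapped the controls. Nuf2 measured 3.24, 5.86 and 9.94 CPM with pamidronate + GGOH (-1.69 ± 0.55, edgeR adjusted p = 0.0376), and Spc24 0.851, 0.810 and 1.95 CPM (-1.63 ± 0.45, edgeR adjusted p = 0.00856). Racgap1 measured 8.68, 9.91 and 18.3 CPM (-1.26 ± 0.36, edgeR adjusted p = 0.0216). In each of these genes replicate 3 lay above control 1 and below controls 2 and 3. Cenpf, at 6.07, 15.4 and 26.3 CPM, had an estimate of -1.21 ± 0.77 and was not called.

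All 3 pamidronate + GGOH libraries lay below controls 2 and 3 in 40 of 40 members, as in 34.2% of all genes, and below control 1 in 4. Without control 1, 38 members were called lower (25.9% of all genes), and with library weights in limma-voom 40 were (32.1% of all genes). Leaving out other libraries gave fewer calls: without control 3 or pamidronate + GGOH 2 the counts were 5 and 4. In those fits 7837 of 16578 and 6923 of 16299 genes were called in either direction. Bub3, Mad2l1, Spc24 and Incenp kept their call in all 18 alternative fits. The other calls were lost in 3 (Spc25), 4 (Bub1b), 5 (Racgap1), 7 (Bub1), 9 (Nuf2) or 10 (Kif11) of the 18.

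Genes that work with these members were set beside them in 7 lists. Of 60 other kinetochore and spindle genes tested, 15 rose and 17 fell with pamidronate, and 4 rose and 14 fell when GGOH was added to pamidronate, with median log2 fold changes of -0.37 and -0.21. These counts are 25.0% and 28.3% of the list with pamidronate (36.2% and 32.9% of all genes) and 6.67% and 23.3% with GGOH (25.2% and 23.6%). Spdl1, the adaptor that brings dynein to kinetochores, rose from 8.61 ± 4.69 CPM in the controls to 64.3 ± 9.70 with pamidronate (log2 fold change 2.90 ± 0.43, edgeR adjusted p = 0.000628, n = 3 against 3). It was at 15.2 ± 4.16 CPM with GGOH added, a fall of 2.08 ± 0.41 on the log2 scale (edgeR adjusted p = 0.00453). The spindle protein Psrc1 had the largest such fall in that list, from 237 ± 21.8 to 45.1 ± 5.08 CPM, against 45.4 ± 6.30 CPM in the controls. Ccnf, cyclin F, which works in a ubiquitin ligase, rose most, from 19.5 ± 8.27 to 266 ± 37.8 CPM. With GGOH added it was at 182 ± 85.7 CPM, not called against pamidronate (-0.55 ± 0.44, edgeR adjusted p = 0.348) and higher than in the controls (3.22 ± 0.49, edgeR adjusted p = 0.00169).

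None of the condensin and cohesin genes, which shape and hold sister chromatids, was called higher in a treated group than in the controls. With pamidronate 8 of 13 fell (61.5%, against 32.9% of all genes) and 0 rose, and relative to the controls 9 fell with pamidronate + GGOH (69.2%, against 26.0%) and 0 rose. Of 15 subunits of the anaphase-promoting complex, 7 rose and 3 fell with pamidronate, and 1 rose and 8 fell when GGOH was added. Anapc7 rose from 17.2 ± 1.86 to 40.4 ± 0.480 CPM, while Anapc5 fell from 86.8 ± 14.8 to 35.9 ± 0.824 CPM. The list's shares were 46.7% higher and 20.0% lower with pamidronate (36.2% and 32.9% of all genes), and 6.67% higher and 53.3% lower with GGOH (25.2% and 23.6%).

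Of 23 transcriptional regulators of mitotic genes, 15 fell and 5 rose with pamidronate, 65.2% and 21.7% of the list against 32.9% and 36.2% of all genes. Foxm1, an activator of late cell-cycle genes, was not called at 60.1 ± 25.6 CPM in the controls and 28.0 ± 2.23 with pamidronate (-1.10 ± 0.43, edgeR adjusted p = 0.0582). Mybl2, which encodes B-Myb, fell by 0.80 ± 0.26 (edgeR adjusted p = 0.0149), and E2f8, a repressor of the E2F family, by 3.01 ± 0.64 (edgeR adjusted p = 0.00442). A list of 16 genes held cell-cycle inhibitors and other regulators, among them Mdm2, Ccng1, Plk2 and Plk3. Of its 13 genes tested, 6 rose and 5 fell with pamidronate, and 9 fell and 0 rose when GGOH was added. The shares with pamidronate were 46.2% and 38.5%, against 36.2% and 32.9% of all genes, and 69.2% fell with GGOH against 23.6% of all genes. Cdkn1a, the Cdk inhibitor p21, was at 227 ± 24.5 CPM in the controls, 495 ± 66.6 with pamidronate and 210 ± 16.8 with pamidronate + GGOH. The list did not follow Cdkn1a as a whole. Between pamidronate + GGOH and the controls, 4 of the 13 genes were called higher and 6 lower (30.8% and 46.2%, against 26.3% and 26.0% of all genes). The highest log2 fold change in the list was 3.77 there, and 4.41 between pamidronate and the controls.

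Upstream in the cell cycle, 8 of 11 cyclins and kinases of G1 and S phase fell with pamidronate (72.7%, against 32.9% of all genes) and 1 rose. Ccnd1, cyclin D1, fell from 358 ± 27.8 to 77.1 ± 7.75 CPM and was at 248 ± 61.3 CPM with GGOH added. Of 40 DNA replication genes, 25 fell (62.5%, against 32.9% of all genes) and 4 rose with pamidronate. When GGOH was added 0 rose and 8 fell (20.0%, against 23.6%), although the list's median was above 0 at 0.22. Mcm6, a subunit of the replicative helicase, measured 59.7 ± 26.0 CPM in the controls and 10.3 ± 3.43 CPM with pamidronate.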

How the data were processed

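RNA from 9 libraries of RAW 264.7 cells was prepared from 300 ng each with a ribosomal RNA depletion kit, per the labels' protocols. The authors deposited whole-number read counts per gene, which were the starting point of every test. Trimmomatic 0.36, DESeq and the build GRCm38 are named per the submitters' processing notes, and for the aligner, counter and strand setting the sources name nothing. The authors also deposited TPM values, which equalled counts over gene length scaled to a fixed sum, with a largest difference of 5.00e-05, and served only to compare levels between genes. The 3 groups were taken from the treatment labels.

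Genes passing filterByExpr of edgeR 4.0.16 at its defaults (a count of 10, a total of 15) were tested in 1 model of group means over all 9 libraries, with TMM factors and a robust quasi-likelihood fit in R 4.3.3, leaving 6 residual degrees of freedom. P-values were adjusted by the Benjamini-Hochberg method over all 15963 genes, and a gene was called at an adjusted p under 0.05. Each SE was the absolute log2 fold change divided by the root of F. The test was checked on simulated data in which all genes had 1 relative spread between libraries (coefficient of variation 0.127). The fitted value had a median of 0.426 over the members, so that check does not cover genes as variable as these. CPM values are counts scaled with the TMM factors. The effect of depth was not tested, and the lowest member count in a library was 13, for Spc24. Also tried were upper-quartile and RLE factors, dropping the filter, a filter of 1 CPM in 3 libraries, DESeq2 1.42.0, limma-voom (limma 3.58.1) without and with library weights, a fit of only the compared groups, a block for replicate number, a threshold of 0.01, and each library left out. The share of each member in the summed member counts was chosen after the data were seen.

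The members and lists were chosen with earlier results of these data known. Values by library are given for Ccnb1, Cdk1, Plk1, Aurkb, Bub1b, Bub3, Cenpe, Cenpf, Kif11, Top2a, Mki67 and Racgap1 and for the called members that changed most in each comparison and direction, at most 6. From each other list, Foxm1, Mybl2, Cdkn1a, Spdl1 and the called genes that changed most in a comparison, at most 3, could be named. Itgam, with 2 rows, was left out of the macrophage markers, and Sgo2a was not found by that symbol. Gene positions are from GENCODE M21 (GRCm38), and promoter windows from RefSeq (GRCm38.p6). Sequence shared with other transcripts was searched at 95% identity over 200 bases.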

Additional observations from a re-analysis of the deposited data

How the results depend on the processing

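Counts of called members depended on the setting, while their median did not change sign relative to the controls in any fit. Between pamidronate + GGOH and pamidronate the median, -0.04, ran from -0.30 to 0.20. For pamidronate against control, 14 lower calls became 8 with no filter on low counts, 28 with library weights in limma-voom and 3 at an adjusted p under 0.01, and 6 to 33 with each library left out. The higher calls, 2 at first, became 1 with the groups compared alone and 1 at an adjusted p under 0.01, and were 1 to 2 with each library left out. For pamidronate + GGOH against pamidronate, 3 lower calls became 8 with library weights (26.9% of all genes) and 7 with the groups alone, and were 2 to 7 with each library left out. Higher calls there were 1 with the groups alone and 0 to 1 with each library left out. For pamidronate + GGOH against control, 10 lower calls became 5 with no filter, 17 with DESeq2, 16 with limma-voom, 40 with library weights, 4 with the groups alone and 3 at an adjusted p under 0.01, and were 4 to 38 with each library left out. Library weights were 0.509 for control 1 and 3.04 for control 2. Calls over all genes, in either direction, changed as well. For pamidronate against control they were 11042 of 15963 at first, 11621 of 36344 with no filter and 12059 with library weights. For pamidronate + GGOH against control they were 8359 of 15963 at first and 9147 of 36344 with no filter. They were 8143 with DESeq2, 8292 with limma-voom, 10252 with library weights and 7279 of 15106 with the groups alone. Upper-quartile factors moved the median of all genes to 0.28 for pamidronate and 0.23 for pamidronate + GGOH against control, and the members' medians to -0.91 and -0.88. The cause of these differences was not tested, except that a stricter threshold by construction calls fewer genes.

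The replicate numbers were not treated as pairing the samples. Correlations of deviations between groups ran from -0.224 to 0.204 for libraries of the same number and from -0.215 to 0.177 for others. Between controls and pamidronate + GGOH they were 0.204, -0.0381 and 0.145 for the same number. For replicate 1 against replicate 3 of these groups they were -0.215 and -0.147. These were taken over all genes tested, so they do not address the members alone. Levels rose from replicate 1 to replicate 3 in 40 of 40 members in the controls and 35 with pamidronate + GGOH, but in 3 with pamidronate. Whether this order reflects a pairing was not tested. With the replicate block, lower calls were 20 of 40 for pamidronate against control, where 32.9% of all genes were called lower. They were 5 for pamidronate + GGOH against pamidronate (23.1% of all genes) and 23 for pamidronate + GGOH against control (26.3% of all genes).

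Sign changes were confined, among the named members tried, to estimates that were not called. For pamidronate against control, Cdk1 moved to 0.03 with upper-quartile factors and ran from -0.49 to 0.16 with each library left out, and Cenpe ran from -0.15 to 0.60. For pamidronate + GGOH against pamidronate, Plk1 moved to -0.02 with limma-voom, -0.30 with library weights and -0.08 with the replicate block, and Racgap1 to 0.04 with no filter. With each library left out, the log2 fold change ran from -0.16 to 0.64 for Ccnb1, -0.49 to 0.38 for Plk1, -0.68 to 0.02 for Bub1b, -0.21 to 0.00 for Bub3, -0.95 to 0.03 for Cenpf, -0.15 to 0.70 for Mki67 and -0.38 to 0.23 for Racgap1. The number of members whose share of the member counts separated from pamidronate upward with GGOH rose from 10 to 16 without pamidronate + GGOH replicate 1, and against control it went from 4 to 11 higher and from 5 to 13 lower without control replicate 1, and from 4 to 7 higher without pamidronate + GGOH replicate 3. Between pamidronate and control these counts stayed within 1.5 times of 13 and 15.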
